A study of Homo sapiens with 2 samples.

Results

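The squamous lineage transcription factors, 10 in number, were followed in HSC-3 cells, an established line from a human squamous carcinoma of the tongue. They are TP63, SOX2, TFAP2A, KLF4, KLF5, GRHL1, GRHL2, GRHL3, OVOL1 and ZNF750, chosen by name for their roles in basal identity and squamous differentiation. All 10 symbols were found among the 60616 genes listed, each on 1 row, and all 10 were among the 24454 genes whose FPKM exceeded 0 under both treatments. One library came from cells given 1 µM FIN56 for 48 h and the other from cells given the vehicle, 0.1% DMSO, for which no time is labelled. FIN56 is a small molecule that brings about ferroptosis by lowering GPX4, the enzyme that detoxifies lipid peroxides. Both libraries are poly(A)-selected, stranded RNA-seq of the same line. Each treatment has 1 library, so no difference could be held against replicate spread and p-values are not given. For the same reason no likeness of pattern to other genes could be measured. In bulk RNA, fewer cells of a type and less RNA per cell cannot be told apart.

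Stratified squamous epithelium is renewed from a basal layer whose cells leave the basement membrane, stop dividing and build a cornified or mucosal surface. p63, the product of TP63, holds the basal program and opens the enhancers of keratinocyte genes, together with AP-2α (TFAP2A) and KLF5. KLF4, GRHL3, OVOL1 and ZNF750 act later and drive the differentiated layers, whereas GRHL2 maintains the epithelial state, and SOX2 is a progenitor factor that squamous carcinomas often amplify beside TP63.

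The libraries held 70184517 (DMSO) and 73062209 (FIN56) expected counts. An expected count is the number of reads that RSEM assigns to a gene, with reads that fit several genes divided between them. FPKM divides it by the depth and by the effective gene length, and TPM rescales those values to the same sum in each library. All 8 squamous epithelial markers were at 9.42 FPKM or more in both libraries, led by KRT5 and KRT14. PTPRC and CD3E of leukocytes were listed at 0 counts in both, and COL1A2 and COL3A1 of fibroblasts had at most 1 count. The summed FPKM of 6 fibroblast markers was 5.10 in DMSO and 2.92 in FIN56, mostly from COL1A1 (4.25 and 2.19). That of 4 leukocyte markers was 57.29 and 24.58, nearly all from the lysosomal gene CD68, and that of the endothelial markers was 0.08 in both. The part of these genes in the results was not tested.

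TP63, KLF5 and TFAP2A of the basal program were abundant, and OVOL1, GRHL3 and ZNF750 of the late differentiation factors were scarce. The progenitor factor SOX2 was scarce too, and KLF4, also a late factor, lay between. In the DMSO library the order by FPKM was TP63 (85.64), KLF5 (47.69), TFAP2A (46.92), GRHL2 (14.54), KLF4 (4.11), GRHL1 (1.40), OVOL1 (0.59), GRHL3 (0.43), SOX2 (0.05) and ZNF750 (0.02). The order in the FIN56 library was the same. Exact Poisson intervals of the counts, carried to FPKM, kept most neighbours apart. KLF5 (46.8 to 48.6) and TFAP2A (45.9 to 47.9) overlapped in DMSO but not in FIN56, where they spanned 54.9 to 56.8 and 51.9 to 54.0. OVOL1 overlapped with GRHL3, and SOX2 with ZNF750, in both libraries. The 4 most abundant factors made up 96.7% of the summed TPM of all 10 in DMSO and 96.1% in FIN56. That sum was 301.2 TPM in DMSO and 345.8 TPM in FIN56. TP63 alone contributed 42.5% and 40.9% of it, and ranked 1175 and 1121 among all genes by TPM.

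**Figure D1:**
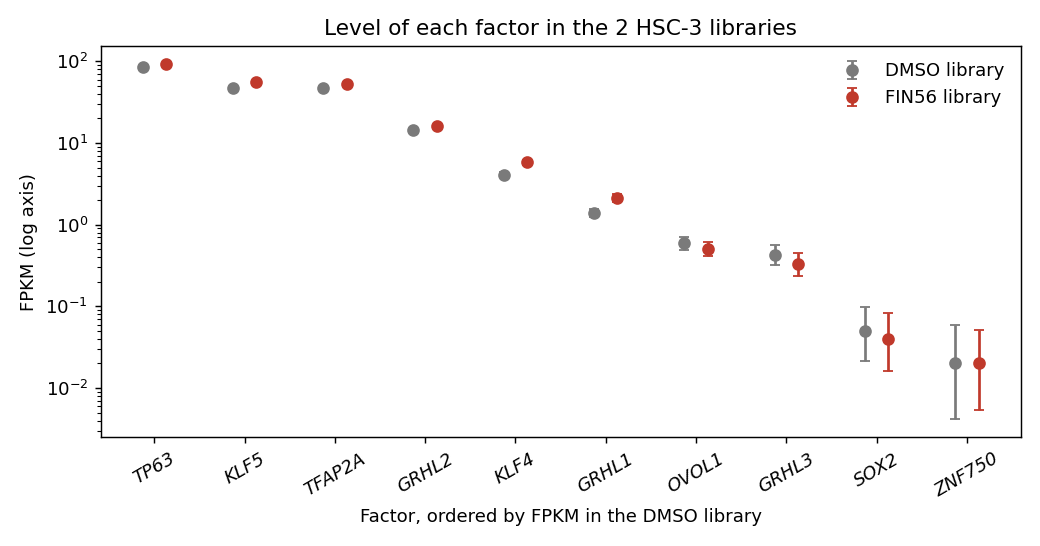
FPKM of the 10 factors on a log axis in the DMSO (grey) and FIN56 (red) library of HSC-3 cells, 1 library each, with 95% Poisson intervals of the expected counts that cover counting error only. TP63 lies near 90 FPKM in both libraries, and SOX2 and ZNF750 lie at 0.05 FPKM or less.

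FPKM was higher in the FIN56 library for 6 of the 10 factors, lower for 3 and equal for ZNF750. GRHL1 was the 1 factor of 10 with an FPKM ratio of 1.5 or more, a mark that 14.7% of all genes above 0 in both libraries reached. None of the 10 had a ratio of 1/1.5 or less, against 17.3% of all genes. The median log2 FPKM ratio of the 10 factors was 0.13, beside a median of 0 over the 24454 genes. A 95% Clopper-Pearson interval of the count ratio, which covers counting error only, lay above 1 for 5 of the 8 factors that reached 10 expected counts in each library, compared with 31.3% of the 17374 such genes. It lay below 1 for none of the 8, compared with 31.0% of those genes. These intervals narrow with depth, so that a small ratio of an abundant gene stands clear of 1 where the same ratio of a scarce gene does not.

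**Figure D2:**
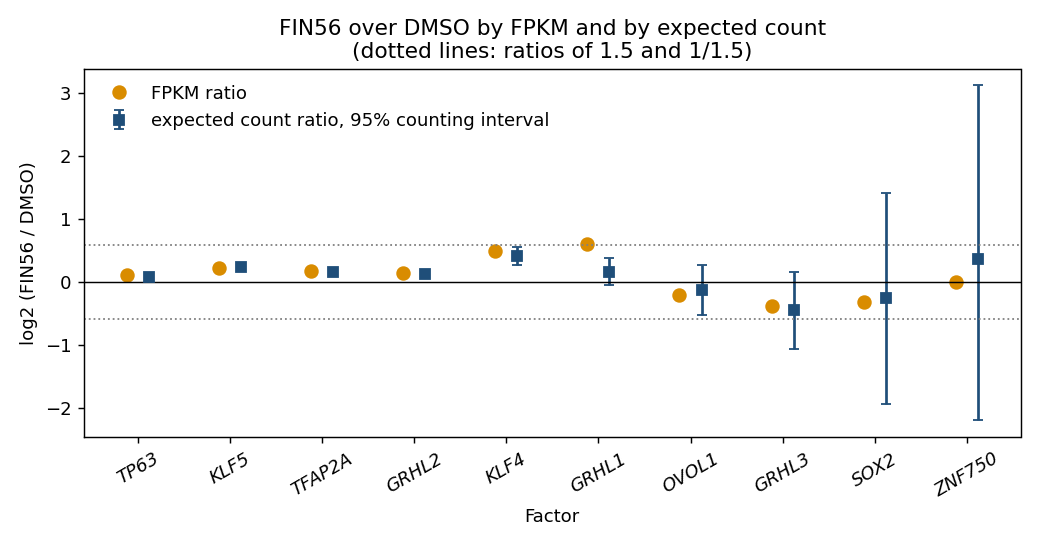
Log2 ratio of FIN56 over DMSO for the 10 factors, by FPKM (orange) and by expected count with its 95% counting interval (blue). The intervals of TP63, KLF5, TFAP2A, GRHL2 and KLF4 lie above 0, and GRHL1 passes 1.5 by FPKM but not by count.

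Among the basal identity factors, TP63 had 24899 (DMSO) and 27464 (FIN56) expected counts. Its FPKM went from 85.64 to 92.59, a ratio of 1.08, and its count ratio was 1.06 with an interval of 1.04 to 1.08. TP63 (ENSG00000073282) spans 189631389 to 189897276 of chromosome 3, plus strand, in GRCh38, where GENCODE release 44 gives it 14 transcripts. The long TA forms and the ΔN forms start at separate promoters, and the gene-level values do not separate them. TFAP2A (ENSG00000137203, minus strand of chromosome 6, 10393186 to 10419659) encodes AP-2α, an activator of basal keratin genes. It had 8215.69 and 9484.68 expected counts and 46.92 and 52.93 FPKM in DMSO and FIN56. Its count ratio of 1.11 had an interval of 1.08 to 1.14, and its counts were not whole, so part of its reads was shared with another gene. KLF5 (ENSG00000102554, plus strand of chromosome 13, 73054976 to 73077541), a zinc finger factor of proliferating basal cells, had 10532 and 12869 counts. Its FPKM was 47.69 in DMSO and 55.85 in FIN56, and its count ratio of 1.17 (1.14 to 1.20) was the highest of the 4 most abundant factors. All 3 were thus higher in FIN56 by a small margin that exceeded counting error.

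SOX2 (ENSG00000181449, plus strand of chromosome 3, 181711925 to 181714436), a single-exon gene, had 8 counts in DMSO and 7 in FIN56, or 0.05 and 0.04 FPKM. The interval of its count ratio ran from 0.259 to 2.65, and a difference was not detectable at this depth. Both values are above the level of 3 counts, which is 0.019 FPKM for SOX2 in DMSO and 0.017 in FIN56.

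GRHL2 and GRHL1 belong to the grainyhead-like family, which governs epithelial junctions and barrier repair. GRHL2 (ENSG00000083307, plus strand of chromosome 8, 101492439 to 101669726), the family member that sustains E-cadherin expression, had 4821 and 5457 counts. Its FPKM was 14.54 in DMSO and 16.05 in FIN56, with a count ratio of 1.09 (1.05 to 1.13). GRHL1 (ENSG00000134317, plus strand of chromosome 2, 9951693 to 10002277), which regulates desmosomal cadherins, had 333 and 388 counts. Its FPKM was 1.40 in DMSO and 2.13 in FIN56, a ratio of 1.52. The count ratio was nearer to 1, at 1.12, with an interval of 0.9643 to 1.2997 that includes 1. TPM gave 2.09 and 3.25, a ratio of 1.56.

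The gap between the FPKM and the count ratio of GRHL1 lay in the effective length, which RSEM sets for a gene from its estimated transcript proportions. The length implied by its count and FPKM was 3389 bases in DMSO (3377 to 3401 within the rounding of FPKM) and 2493 bases in FIN56 (2487 to 2499). The log2 ratio of these lengths was -0.44. A change at least as large in either direction was found in 249 (1.75%) of 14247 genes whose counts summed over both libraries reached 100. Those genes were not matched to GRHL1 for depth or number of transcripts. The central 95% of them ran from -0.31 to 0.23. GENCODE release 44 lists 8 transcripts of GRHL1, of which the canonical one has 16 exons and 3568 bases, another coding one has 12 exons and 1881 bases, and a further 2 with 16 exons that are marked for nonsense-mediated decay have 2060 and 2099 bases. That release is later than the annotation the authors used, and transcript-level values were not used here. The implied lengths of TP63, KLF5, TFAP2A and GRHL2 moved little, with FIN56 over DMSO ratios of 0.980, 1.00, 0.983 and 0.985.

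**Figure D3:**
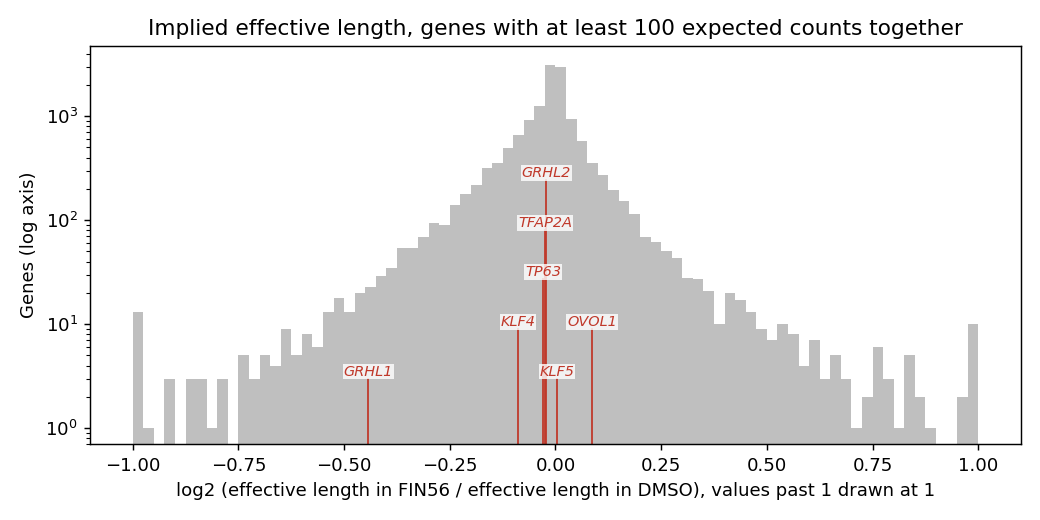
Distribution over 14247 genes of the log2 ratio of implied effective length, FIN56 over DMSO, with the 7 factors whose summed counts reach 100 marked in red; the height of a mark carries no value. GRHL1 stands at -0.44, and the other 6 lie between the length ratios of KLF4 (0.941) and OVOL1 (1.06).

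Of the differentiation factors, KLF4 was the one with a count interval above 1. KLF4 (ENSG00000136826, minus strand of chromosome 9, 107484852 to 107490482), which is needed to form the skin barrier, had 710 counts in DMSO and 981 in FIN56. Its FPKM was 4.11 and 5.80, a ratio of 1.41, and its count ratio of 1.33 had an interval of 1.20 to 1.46. No other factor had a higher count ratio among those with at least 10 counts in both libraries. OVOL1 (ENSG00000172818, plus strand of chromosome 11, 65787063 to 65797214), a repressor that takes cells out of the cycle, had 112 and 107.03 counts and 0.59 and 0.51 FPKM. GRHL3 (ENSG00000158055, plus strand of chromosome 1, 24199558 to 24364482), a driver of cornification, had 55 and 42 counts and 0.43 and 0.33 FPKM. The count ratios were 0.918 (0.697 to 1.21) for OVOL1 and 0.734 (0.479 to 1.12) for GRHL3, and both intervals include 1. ZNF750 (ENSG00000141579, minus strand of chromosome 17, 82829434 to 82840022), a p63 target that switches on late differentiation genes, had 3 and 4 counts and 0.02 FPKM in both libraries. Its count ratio of 1.28 had an interval of 0.217 to 8.74. The scarce differentiation factors thus carried too few reads for a difference of the size seen to be resolved.

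Sequences upstream of the start were read for KLF4 and GRHL1, which had the 2 highest FPKM ratios, for KLF5, the most abundant KLF gene, and for SOX2, which was barely detected. Each line gives the 250 bases before a RefSeq start (GRCh38.p14) on the strand of the gene, 5′ to 3′, with matches to the GC box GGGCGG or its complement CCGCCC in capitals. The windows are chr9:107489770-107490019 (minus strand) for KLF4, chr13:73058755-73059004 (plus strand) for KLF5, chr2:9951443-9951692 (plus strand) for GRHL1 and chr3:181711675-181711924 (plus strand) for SOX2. That of KLF5 belongs to the downstream of 2 listed starts and lies within an intron of the KLF5 transcripts that begin at the upstream start.
KLF4: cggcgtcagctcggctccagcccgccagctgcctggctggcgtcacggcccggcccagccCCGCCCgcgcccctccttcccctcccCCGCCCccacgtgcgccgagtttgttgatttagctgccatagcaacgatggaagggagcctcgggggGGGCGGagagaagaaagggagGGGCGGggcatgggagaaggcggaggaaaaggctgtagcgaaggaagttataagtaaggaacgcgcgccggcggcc
KLF5: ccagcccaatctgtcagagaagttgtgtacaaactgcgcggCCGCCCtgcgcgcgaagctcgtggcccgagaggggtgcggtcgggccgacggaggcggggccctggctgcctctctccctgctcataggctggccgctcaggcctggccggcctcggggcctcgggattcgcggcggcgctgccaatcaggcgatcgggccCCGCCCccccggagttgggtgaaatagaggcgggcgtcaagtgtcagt
GRHL1: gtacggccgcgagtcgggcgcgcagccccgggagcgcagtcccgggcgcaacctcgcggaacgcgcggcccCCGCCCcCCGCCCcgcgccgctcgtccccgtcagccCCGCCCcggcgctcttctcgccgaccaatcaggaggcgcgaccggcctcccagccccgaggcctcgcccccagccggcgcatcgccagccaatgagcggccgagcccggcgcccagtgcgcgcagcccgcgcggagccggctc
SOX2: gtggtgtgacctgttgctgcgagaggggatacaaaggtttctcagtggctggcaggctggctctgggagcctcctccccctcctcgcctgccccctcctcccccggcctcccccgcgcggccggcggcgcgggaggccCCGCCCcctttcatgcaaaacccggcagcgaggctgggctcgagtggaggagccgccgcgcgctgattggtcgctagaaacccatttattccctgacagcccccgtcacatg

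GC boxes stood at 4 places in the KLF4 window, 3 in that of GRHL1, 2 in that of KLF5 and 1 in that of SOX2. Of the 35116 RefSeq windows of that length, 42.6% hold at least 1. The GC content was 69.2% for KLF4, 70.8% for KLF5, 81.6% for GRHL1 and 68.8% for SOX2 in the windows printed, beside a median of 58.0% over all windows. The window at the upstream start of KLF5, which is not printed, had 40.8% GC, 0 GC boxes and 1 match to the TATA box TATAAA or its complement, which 10.7% of all windows hold. The GRHL motif AACCNGTT, sought on both strands, matched none of these 4 windows and 1.49% of all windows. Windows of TP63, TFAP2A and GRHL3 were also read. Their GC contents were 44% for TP63, 59.6% and 71.2% for the 2 starts of TFAP2A, and 50.8% and 52.0% for those of GRHL3. They held 0 GC boxes for TP63 and for both starts of TFAP2A, and 1 and 0 for those of GRHL3. The TP63 window lies before the start at 189631389. No window was read for its downstream starts, such as the one at 189789659. A match is a description of letters and was not tested as a binding site.

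Ranked by TPM within their gene families, the factors of the AP-2, KLF, GRHL, OVOL and SOX families held the same place in both libraries, except SOX2, which was 9th and 10th of 19 SOX genes. TFAP2A held 87.0% and 86.3% of the AP-2 family, and TFAP2C, the other AP-2 gene above 1 FPKM, was at 6.91 and 8.32 FPKM (count ratio 1.22, 1.13 to 1.31). GRHL2 held 88.8% and 86.7% of the GRHL family, and GRHL1 8.53% and 11.5%.

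Of 24 listed paralogs and relatives of the factors, 20 were above 0 FPKM in both libraries. Among these 13 were higher and 6 lower in FIN56, 2 (KLF2 and KLF15, with few counts) were at 1.5 or more and 1 (OVOL3) was at 1/1.5 or less, with a median log2 FPKM ratio of 0.07. The median log2 count ratio, scaled by library totals, was -0.0018 over the paralogs above 0 and 0.05 over the 18 with 10 expected counts or more in each library. UBP1, a relative of the GRHL genes in the CP2 family, was at 30.48 FPKM in DMSO and 26.19 in FIN56 (count ratio 0.826, 0.797 to 0.856). KLF5 led 18 KLF genes with 30.1% of their TPM in DMSO and 30.8% in FIN56, and KLF4 came eighth with 2.59% and 3.20%. KLF10, a gene induced by TGF-β, had 4038 and 5379 counts (ratio 1.28, 1.23 to 1.33), and KLF12 had 1519 and 2030 (1.28, 1.20 to 1.37). KLF9 was lower, with 468 and 397 counts (0.815, 0.711 to 0.933). KLF8 had a count ratio of 0.788 (0.677 to 0.916) beside an FPKM ratio of 1.04, so its direction turned with the measure, as did that of TP73 (0.883 and 1.03).

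OVOL1 was the minor OVOL gene, with 9.39% of the family TPM in DMSO and 9.73% in FIN56. OVOL2, which also restrains mesenchymal genes, was at 5.70 and 4.64 FPKM, with a count ratio of 0.907 (0.793 to 1.04). SOX2 held 0.0285% and 0.0236% of the summed TPM of 19 SOX genes. SOX15, a SOX gene of squamous and placental tissue, held 77.3% and 74.6%, at 126.97 FPKM in DMSO and 124.22 in FIN56 (count ratio 0.990, 0.964 to 1.02). HSC-3 cells thus carried a high level of SOX15 and next to no SOX2 transcript in both libraries.

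**Figure D4:**
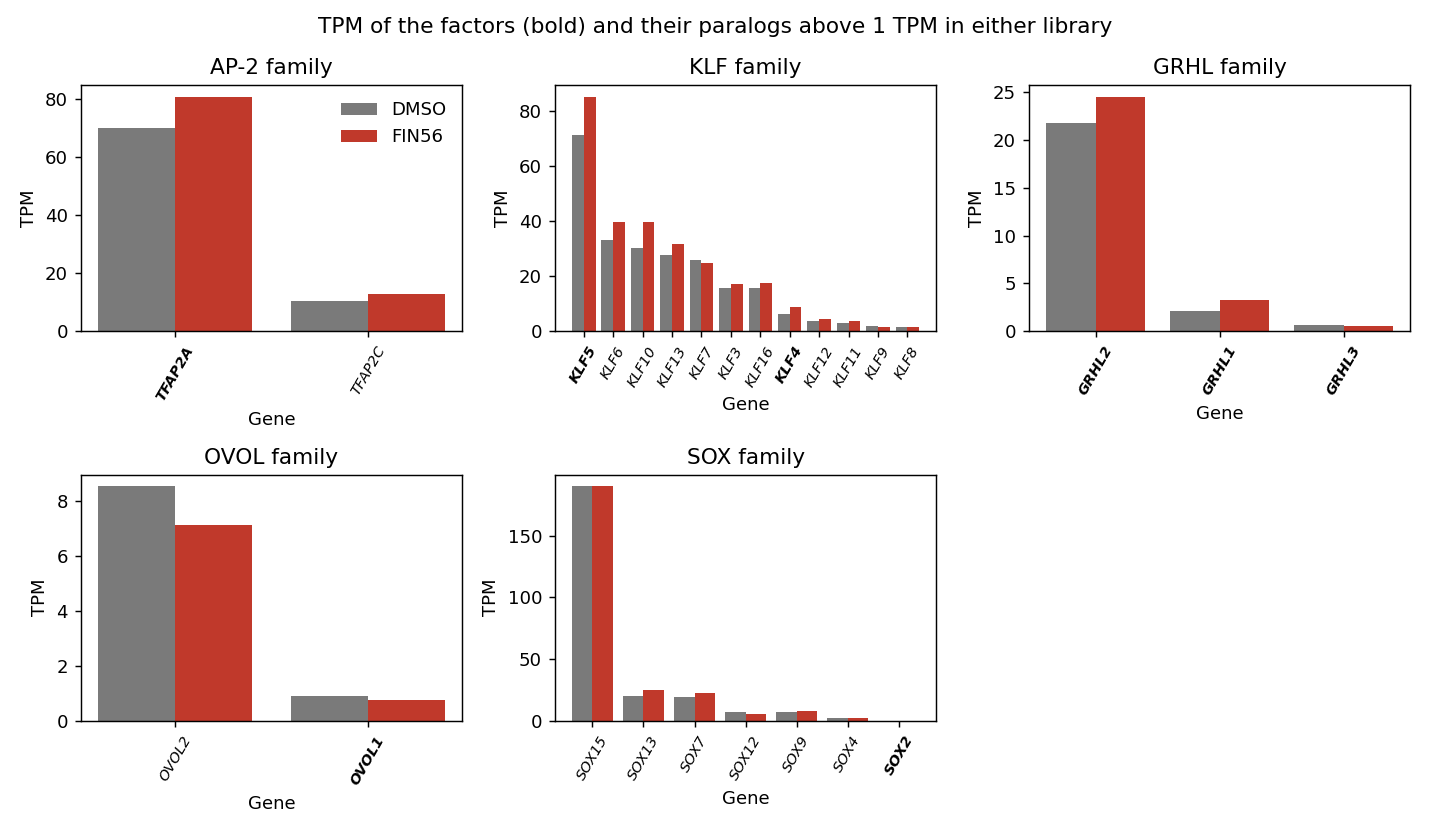
TPM in the DMSO (grey) and FIN56 (red) library for the factors of 5 families (bold) and for those of their paralogs above 1 TPM in either library, 1 library per bar. TFAP2A, KLF5 and GRHL2 lead their families in both libraries, while OVOL1 and SOX2 lie far below OVOL2 and SOX15.

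Other factors of squamous epithelium gave a mixed picture. Of 19 such genes, 17 were above 0 FPKM in both libraries, 0 reached a ratio of 1.5 and 2 (HOPX and MAF, with under 100 counts each) were at 1/1.5 or less. The median log2 FPKM ratio was 0.04, and it ranged from 0 with a pseudocount of 0.1 or 1 FPKM to 0.20 with DESeq2 size factors. Of the 16 with at least 10 counts in both libraries, 8 had a counting interval above 1 and 4 one below. The shares of all such genes were 31.3% and 31.0%. RUNX1, a regulator of epithelial growth, went from 15.19 FPKM in DMSO to 21.25 in FIN56 (count ratio 1.36, 1.31 to 1.41), and PRDM1, which acts in terminal differentiation, from 1.32 to 1.89 (1.25, 1.10 to 1.42). EHF, an abundant epithelial ETS factor, went from 73.06 to 87.32 (1.17, 1.15 to 1.18). FOXE1, a forkhead factor of foregut epithelium, was at 10.77 and 12.52 (1.16, 1.10 to 1.22), and CEBPA at 0.96 and 1.12 (1.17, with an interval of 0.946 to 1.44 that includes 1). ELF3, an ETS factor of differentiating epithelium, went the other way, from 27.71 to 20.42 (0.647, 0.611 to 0.685).

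Genes of the basal layer that p63 is known to regulate were abundant. All 16 were above 0 FPKM in both libraries, with a median log2 FPKM ratio of 0.05, 0 at 1.5 or more and 1 at 1/1.5 or less. Counting intervals lay above 1 for 8 and below 1 for 7, beside 31.3% and 31.0% of all genes with at least 10 counts in both libraries. At the depth of these abundant genes, small ratios also stand clear of 1. KRT15, a keratin of basal cells, was the gene past the threshold, with 6553 counts in DMSO and 2317 in FIN56 and 68.60 and 23.55 FPKM (count ratio 0.340, 0.324 to 0.356). ITGB4, the hemidesmosomal integrin subunit, was at 193.90 and 131.55 FPKM (0.651, 0.643 to 0.660), whereas its partner ITGA6 was at 181.92 and 211.10 (1.16, 1.15 to 1.17). KRT5 was at 2078.49 and 1646.62 FPKM (0.786, 0.781 to 0.790), and PERP, a p63-induced desmosomal membrane protein, at 106.99 and 136.81 (count ratio 1.28). The Notch ligand JAG2 was at 43.92 and 40.75 FPKM (0.847, 0.823 to 0.871). TP63 itself, at a count ratio of 1.06, lay between these genes.

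Many differentiation genes were hardly expressed. Of 24 listed genes, 5 (KRT1, KRT4, TGM3, SPRR3 and LORICRIN) had 0 counts in both libraries, where 0 counts allow up to 3 counts. Of the 19 above 0 FPKM in both, 15 were lower and 4 higher in FIN56, and the median log2 FPKM ratio was -0.43. Of these, 7 were at 1/1.5 or less and 3 at 1.5 or more, marks that 17.3% and 14.7% of all genes reached. KLK7, CDSN, SPRR2A, KRT13 and TGM5 of the 7, and IVL and DSG1 of the 3, had at most 37 counts in either library. Of the 12 with at least 10 counts in both libraries, 5 had a counting interval below 1, compared with 31.0% of all such genes. For 1 of the 12 it lay above 1, compared with 31.3%. The median was nearer to 0 with a pseudocount, at -0.14 with 0.1 FPKM and -0.04 with 1 FPKM. KLK5, a protease that sheds corneocytes, went from 71.66 FPKM in DMSO to 32.40 in FIN56 (count ratio 0.457, 0.438 to 0.476). ALOXE3, a lipoxygenase of the skin barrier, went from 5.80 to 2.87 (0.488, 0.438 to 0.544), and TGM1, the transglutaminase that crosslinks the cornified envelope, from 1.78 to 1.32 (0.633, 0.496 to 0.805). The cornified envelope protein SPRR1B had 106.90 and 75.96 counts (0.683, 0.502 to 0.924), and KRT10 had 3103 and 2777 (0.860, 0.816 to 0.905). ABCA12, a lipid transporter, was the 1 gene of the 12 with an interval above 1, with 102 and 189 counts (1.78, 1.39 to 2.29).

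Epithelial genes commonly cited as targets of GRHL2 were all above 0 FPKM in both libraries. Of these 12 genes, 9 were higher and 3 lower in FIN56, 0 passed either threshold, and the median log2 FPKM ratio was 0.10. Counting intervals lay above 1 for 8 and below 1 for 2, beside 31.3% and 31.0% of all genes with at least 10 counts in both libraries. EPCAM, an epithelial adhesion protein, was at 111.32 FPKM in DMSO and 160.11 in FIN56 (count ratio 1.40, 1.37 to 1.44). The membrane protease ST14 was at 32.56 and 43.88 (1.35, 1.31 to 1.39), and its inhibitor SPINT1 at 52.33 and 72.45 (1.36, 1.32 to 1.40). The splicing regulators ESRP1 (51.04 and 45.25 FPKM, count ratio 0.822, 0.800 to 0.845) and ESRP2 (15.99 and 14.26 FPKM, 0.870, 0.825 to 0.917) were lower. The tight junction gene OCLN was at 3.63 and 4.36 FPKM (1.15, 1.05 to 1.25). CDH1, which encodes E-cadherin, was at 43.99 and 43.84 FPKM but had a count ratio of 1.03, so its direction turned with the measure.

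**Figure D5:**
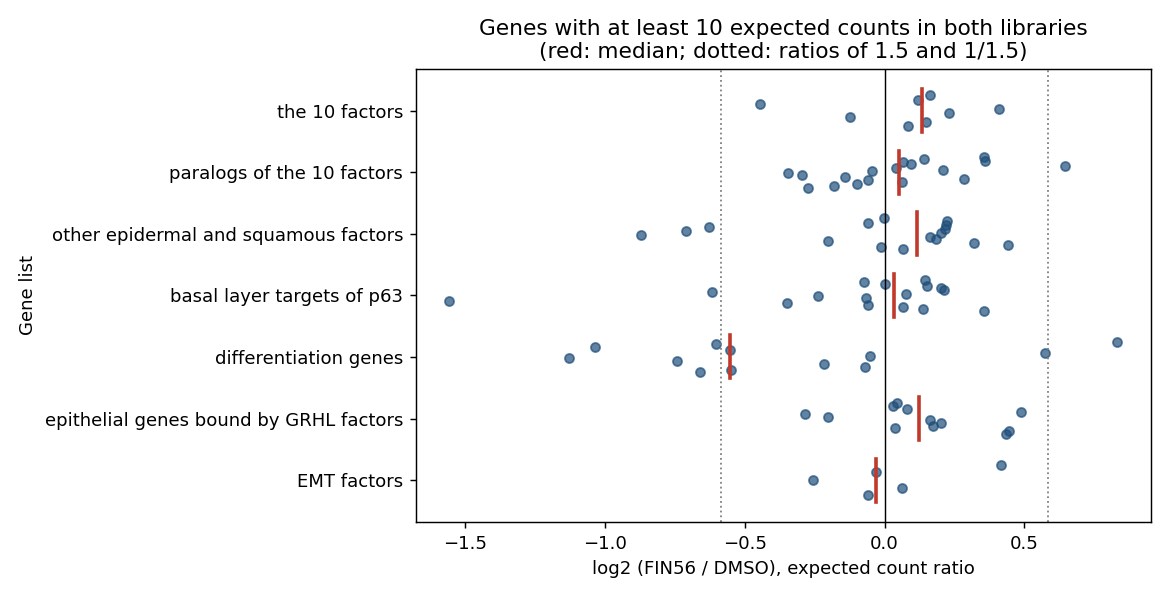
Log2 expected count ratio, FIN56 over DMSO, of genes that reach 10 expected counts in each library, by gene list, 1 point per gene and a red line at the median; the vertical place of a point within a list carries no value. The medians are 0.14 for the 10 factors and -0.55 for the differentiation genes.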

How the data were processed

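The 2 libraries were grouped by their treatment labels, and all 8 sample columns were matched by name. By the methods and the labels, the authors trimmed reads with AfterQC, aligned them with STAR 2.6.1a to GRCh38 (Ensembl release 94) and used RSEM 1.3.1 per gene; the methods state this for tumor samples. As deposited, expected counts carry no normalization. The FPKM deposited by the authors are scaled for depth and effective length and carry 2 decimals, and the TPM deposited by the authors share 1 sum per library. The authors also gave rlog values, a log2 transform from DESeq2 1.26.0.

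The main measure was the FPKM ratio, FIN56 over DMSO, where neither value was 0, with thresholds of 1.5 and 1/1.5. Count ratios were scaled by library totals, with an exact Clopper-Pearson interval (95%) on rounded counts. Levels carry exact Poisson intervals. Reads were amplified and carry no molecular identifiers, so these cover counting error only. Implied effective length was the count divided by FPKM and depth. The interval step was run on simulated Poisson counts, which follow the model that the interval assumes. Such a run cannot show how the interval does with spread beyond counting error.

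Factors and lists were chosen with earlier results of these data known. Named from each related list were up to 6 genes with the largest count ratio in either direction, of those with at least 100 counts together, and others where a role or a count needed them. LOR was matched as LORICRIN, and a few genes of the lists are not reported here and were left out of the lists. Gene families were formed from symbols, with the values already known. GENCODE release 44 gave positions (all 10 identifiers matched). RefSeq promoter windows were read for 7 factors. OVOL1 and ZNF750 had none listed, and GRHL2 was left out.

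Alternatives were TPM, rlog, edgeR 4.0.16 TMM, DESeq2 1.42.0 size factors, library totals, minimum values, pseudocounts of 0.1 and 1 FPKM, and a threshold of 2. Python 3.11.15, scipy 1.17.1 and R 4.3.3 were used.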

Additional observations from a re-analysis of the deposited data

How the results depend on the processing

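No paired analysis was possible because neither treatment was replicated, and no replicate could be left out. The 1 factor at an FPKM ratio of 1.5 or more (GRHL1) stayed there with TPM, which keeps the effective lengths of FPKM. It also stayed with minimum values of 1 FPKM or 10 expected counts in both libraries, which leave the ratio of a gene unchanged. The count was 0 with rlog values, TMM, DESeq2 size factors, library totals, pseudocounts of 0.1 or 1 FPKM and a threshold of 2. Count-based alternatives use no effective length. The number at 1/1.5 or less was 0 under all 10 alternatives. TP63, KLF5, TFAP2A, GRHL2, KLF4 and GRHL1 were above 1, and OVOL1, GRHL3 and SOX2 below 1, under every alternative that gave a value; KLF4 ranged from 1.11 (rlog) to 1.44 (TPM), and GRHL1 from 1.04 (rlog) to 1.56 (TPM). The median log2 ratio of the 10 factors ranged from 0.05 (rlog) to 0.20 (at least 1 FPKM). That of the other squamous factors moved from 0.04 to 0.20 with DESeq2 size factors and 0.16 with TMM and with library totals. It was 0.14 at 1 FPKM or more, 0.09 at 10 counts or more, 0.07 with TPM and 0 with either pseudocount, and the cause was not tested. That of the basal genes went from 0.050 to 0.081 with TPM, which multiplies every FPKM ratio by the same factor, apart from rounding. The median of the differentiation list stayed negative, from -0.55 (TMM) to -0.02 (rlog), with -0.14 and -0.04 for pseudocounts of 0.1 and 1 FPKM. That of the EMT factors changed sign, from -0.02 to 0.01, with TPM, and was -0.17 at 1 FPKM or more in both libraries. That of the paralogs changed sign from 0.070 to -0.0039 with TMM and -0.0018 with library totals. The median log2 ratio of all genes above 0 lay between -0.03 (TMM) and 0.03 (at least 1 FPKM). Depth limits SOX2, ZNF750, GRHL3 and OVOL1.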

Other observations

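Transcripts named after the factors and listed beside them were scarce. TFAP2A-AS2 had 280.43 (DMSO) and 334.01 (FIN56) expected counts, a count ratio of 1.14 with a 95% counting interval of 0.975 to 1.35, and TFAP2A-AS1 had 56.88 and 60.31 (1.02, 0.692 to 1.48). The counts of both, like those of TFAP2A, were not whole. SOX2-OT, within which SOX2 lies on the same strand, had 6 and 5 counts, beside 8 and 7 for SOX2. OVOL1-AS1 had 0 counts in both libraries and GRHL3-AS1 had 0 and 1. The kit marks strand, and whether the counting used it is not given in the sources used here, so that reads of a gene and its antisense partner may not be told apart.

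Factors that drive the epithelial-mesenchymal transition, which GRHL2 and OVOL genes restrain, were led by SNAI2 at 36.62 FPKM in DMSO and 35.68 in FIN56 (count ratio 0.979, 0.943 to 1.02). TWIST1 was lower, with 705 and 615 counts (0.838, 0.751 to 0.935). ZEB1 stood at exactly 1.5 by FPKM (0.28 and 0.42) and at 1.04 by count (0.791 to 1.39), from 100 and 108.71 counts, a gap between measures as in GRHL1 at a lower level. Of the 6 listed factors, 2 were higher and 3 lower by FPKM, with a median log2 FPKM ratio of -0.02. ZEB2 had 111 counts in each library. TWIST2, chosen after its values were seen, had 25 and 5 counts.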
